A study of Mus musculus with 5 samples.

Results

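Broad domains of RNA polymerase II (Pol II) occupancy were examined in splenic regulatory T (Treg) cells with and without Setd2, the histone H3K36 methyltransferase. A domain was any merged Pol II peak of at least 5000 bp on chromosomes 1 to 19, and 554 of the 56615 merged peaks met this length rule, which used no count. The 2 further peaks of this length lay on chromosome X, among them the peak at Foxp3, and were not included. Pol II was mapped by CUT&Tag, in which an antibody bound to chromatin brings a transposase that cuts and tags the DNA beside it. Ctrl libraries came from Foxp3Cre-YFP Setd2 f/+ mice and KO libraries from Foxp3Cre-YFP Setd2 f/f mice, with 2 libraries for each genotype (Ctrl 1, Ctrl 2, KO 1 and KO 2). In both genotypes Cre was driven by Foxp3, so deletion was directed to Treg cells, and the Ctrl mice also carried Cre and 1 floxed allele. The C57BL/6 mice were 8 weeks old, of both sexes pooled, and had been injected for 3 days with IL-2 (1 μg) bound to an antibody against it (5 μg), which expands Treg cells, and spleens were taken 48 hours later. Each library was made from 80000 nuclei of sorted cells, for which spleens of 2 mice had been combined. The study calls such a set of 80000 nuclei a biological replicate. It is not given whether the libraries of a genotype came from separate combinations. The p-values below therefore measure the spread between these libraries, which may be technical.

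Pol II transcribes all protein-coding genes and many noncoding RNAs. At most active genes it is held shortly after initiation, which gives a narrow peak at the start site, and release into elongation carries it through the gene body and past the polyadenylation site. A peak of many kilobases can therefore arise where polymerase is dense along the gene as well as at its start. In activated T cells, genes that respond quickly to antigen receptor and cytokine signals, such as AP-1 factors, MAP kinase phosphatases and inhibitors of NF-κB, are often short and strongly transcribed. The counts come from many nuclei together, so occupancy in fewer nuclei and less occupancy per nucleus cannot be told apart.

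The domains were first described by the DNA at their start sites. The start positions of 347 promoters of 282 genes in the RefSeq promoter table (GRCm38.p6, the assembly that mm10 denotes) lay inside a domain, out of 31396 promoters on chromosomes 1 to 19. Each table entry runs from 250 bases before the start to 50 bases after it, and alternative promoters of a gene can overlap. A form of the NF-κB site (GGG, any pair of bases, then TTTCC) was present on either strand in 17 of the 347 promoters in domains (4.90%), in 132 of 8185 promoters in shorter start site peaks (1.61%) and in 1.66% of all promoters. For the form that ends in TTCCC the shares were 4.03%, 2.41% and 1.81%, and for TGACGTCA, the cyclic AMP response element, they were 6.05%, 3.89% and 1.83%. CCGGAA, an ETS factor core, was in 18.2% of the promoters in domains, 34.4% of those in shorter start site peaks and 15.1% of all promoters, and GGGCGG, the Sp1 core, in 57.6%, 68.0% and 11295 of 31396, so that for both the shorter peaks had the highest share. TATAAA was found in 11.2%, 5.49% and 13.6% of the 3 sets, and TGACTCA, the AP-1 site, in 3.17%, 3.04% and 5.26%. These letters may overlap each other, and a match is a description of the sequence.

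Of the promoters in domains, those of 7 genes from the gene lists used below were picked by hand for printing. Each holds 1 or more of these letters within the 250 bases before the start. Capitals mark either NF-κB form, TGACTCA or TGACGTCA, read on either strand. The Tnfaip3 promoter carried TGACTCA from 136 bases and an NF-κB form from 12 bases upstream of the start, and in Nfkbia the NF-κB form began 29 bases upstream. Nfkb2 had 3 overlapping or neighbouring matches, from 39, 11 and 10 bases upstream. The match began 90 bases upstream in Dusp5, 111 in H2-K1 and 126 in B2m, and the TGACGTCA of Dusp1 began 143 bases upstream.
Tnfaip3 (chr10:19015411-19015660, minus strand): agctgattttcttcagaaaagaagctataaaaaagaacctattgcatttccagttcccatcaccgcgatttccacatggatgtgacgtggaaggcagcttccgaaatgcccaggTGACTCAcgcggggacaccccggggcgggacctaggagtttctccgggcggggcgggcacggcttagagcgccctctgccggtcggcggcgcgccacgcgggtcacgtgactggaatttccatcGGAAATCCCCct
Nfkbia (chr12:55492648-55492897, minus strand): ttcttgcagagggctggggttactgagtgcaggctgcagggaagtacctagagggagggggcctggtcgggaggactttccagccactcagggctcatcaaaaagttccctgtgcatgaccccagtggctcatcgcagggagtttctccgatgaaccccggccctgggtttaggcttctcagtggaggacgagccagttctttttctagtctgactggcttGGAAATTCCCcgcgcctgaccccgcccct
Nfkb2 (chr19:46304487-46304736, plus strand): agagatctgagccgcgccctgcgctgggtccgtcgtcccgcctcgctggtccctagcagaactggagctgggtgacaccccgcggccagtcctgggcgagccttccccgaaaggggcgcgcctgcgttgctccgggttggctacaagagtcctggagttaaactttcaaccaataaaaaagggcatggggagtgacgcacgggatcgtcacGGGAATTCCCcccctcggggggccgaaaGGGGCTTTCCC
Dusp5 (chr19:53528895-53529144, plus strand): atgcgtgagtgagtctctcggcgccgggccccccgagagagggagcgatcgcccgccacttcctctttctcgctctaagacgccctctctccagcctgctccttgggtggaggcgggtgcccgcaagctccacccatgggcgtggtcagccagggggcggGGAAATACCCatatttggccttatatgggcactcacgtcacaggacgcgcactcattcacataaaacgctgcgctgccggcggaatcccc
H2-K1 (chr17:34000348-34000597, minus strand): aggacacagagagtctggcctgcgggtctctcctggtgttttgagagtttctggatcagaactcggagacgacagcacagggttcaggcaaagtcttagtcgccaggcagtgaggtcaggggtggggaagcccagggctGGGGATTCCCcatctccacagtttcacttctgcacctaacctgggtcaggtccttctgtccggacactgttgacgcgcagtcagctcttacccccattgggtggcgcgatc
B2m (chr2:122147437-122147686, plus strand): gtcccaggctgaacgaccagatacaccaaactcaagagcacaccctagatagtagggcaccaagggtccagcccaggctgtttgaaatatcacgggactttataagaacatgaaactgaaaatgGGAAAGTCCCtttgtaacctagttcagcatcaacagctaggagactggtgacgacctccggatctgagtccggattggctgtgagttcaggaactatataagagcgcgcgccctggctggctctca
Dusp1 (chr17:26508473-26508722, minus strand): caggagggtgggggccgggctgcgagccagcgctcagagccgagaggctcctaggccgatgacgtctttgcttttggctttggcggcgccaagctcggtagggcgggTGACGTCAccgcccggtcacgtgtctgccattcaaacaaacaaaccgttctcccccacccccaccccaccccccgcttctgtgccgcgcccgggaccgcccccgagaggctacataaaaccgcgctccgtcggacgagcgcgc

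The domains were long and few. They made up 0.990% of the 55962 autosomal peaks and 9.14% of the bases in them, and together covered 4423 kb. Their median length was 6678.5 bp (quartiles 5735 and 8823 bp) against 564 bp for the 55408 shorter peaks. There were 351 domains under 7.5 kb, 104 from 7.5 to 10 kb, 99 of 10 kb or more and 10 over 20 kb. The domains just inside the limit lay in Apol8 and over the Fermt3 start (5004 bp each) and in Tnrc6b (5012 bp), and the peaks just outside it lay in Stk10 (4991 bp), Fnbp1 and Rgcc (4990 bp each). Their mean normalized counts of 885, 999 and 671 inside and 572, 997 and 602 outside overlapped, with no step at the limit. Every chromosome carried domains, from 10 on chromosome 14 to 57 on chromosome 11, or 0.575% to 1.35% of its peaks. The peaks of the files are merged across libraries, and 117 domains lay within 1 kb of another domain, so 1 stretch of occupancy can be split over neighbouring domains.

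Domains sat on genes. A protein-coding start site lay inside 287 of the 554 (51.8%), 220 (39.7%) lay in the body of a protein-coding gene without its start, 29 (5.23%) touched only other genes (noncoding RNAs, pseudogenes and T cell receptor segments) and 18 (3.25%) touched no annotated gene. Of the shorter autosomal peaks, 15.0% held a start site, 61.2% lay in gene bodies and 19.1% were intergenic. Longer peaks cover more bases and so hold a start site more readily; the share climbed from 8.77% of peaks under 1 kb to 44.2% at 5 to 7.5 kb, 58.7% at 7.5 to 10 kb and 71.7% at 10 kb or more. Occupancy per base was also higher, with a median normalized count of 239 per kb in start site domains against 182 in shorter start site peaks, and of 184 per kb in gene body domains against 106 in shorter gene body peaks. A normalized count is the raw count divided by the library's DESeq2 size factor.

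**Figure D1:**
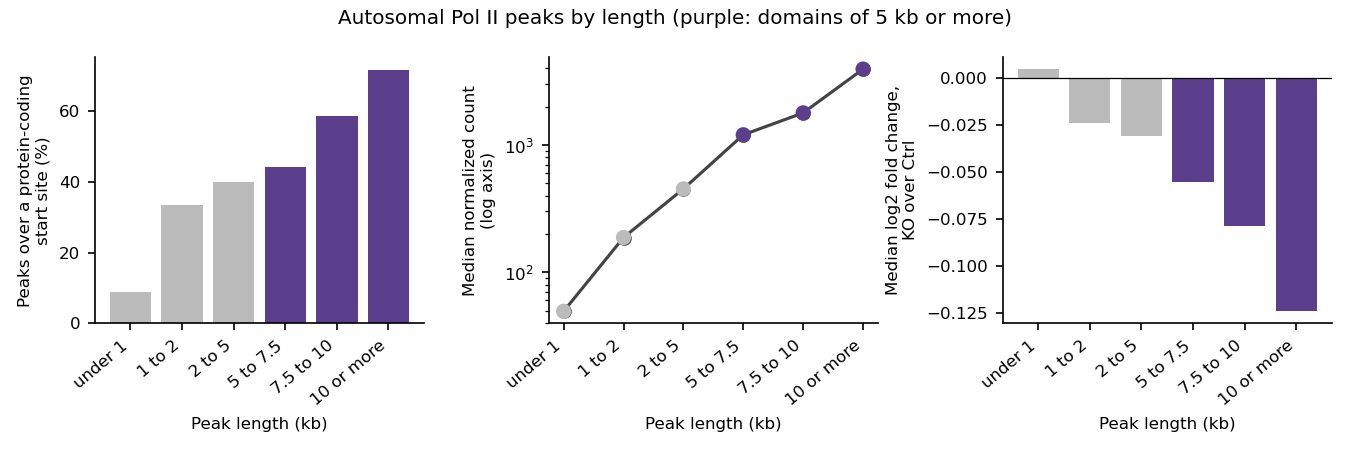
Autosomal Pol II peaks in 6 length classes (kb, x axis), with domains in purple. The bars on the left give the percentage of peaks over a protein-coding start site, the points in the middle the median normalized count per peak on a log axis, and the bars on the right the median log2 fold change of KO over Ctrl; the share rises from 8.77% to 71.7% and the fold change moves from 0.00 to -0.12 from the shortest to the longest class.

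At start sites the domains reached into the gene. For the 216 domains that held the start of their only protein-coding gene, the median extent was 1.11 kb upstream of the first start site and 5.88 kb downstream, and 201 (93.1%) reached farther downstream than upstream. The same measure in 6697 shorter peaks gave 0.389 kb upstream and 0.593 kb downstream, with 68.0% reaching farther downstream. In 38 of the 216 (17.6%) the domain covered the whole gene, against 0.448% of the shorter peaks, and these genes had a median length of 5.20 kb. Among them were Dusp5, Tnfaip3, Lrrc32, Btg1, Cd2, Cish, Socs3, Mcl1, Klf2, Nfkbia, Ier2, Fos and Jun. Over Tnfaip3, a gene of 14.7 kb, the domain ran from 2.30 kb before the start to 18.2 kb after it, past the end of the gene. Gene body domains stood a median of 7.90 kb from the nearest start of their gene, 124 of 220 within 10 kb, and 51 covered its 3′ end. In 195 of the 220 the start of that gene lay under another peak, which was itself a domain in 57.

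**Figure D2:**
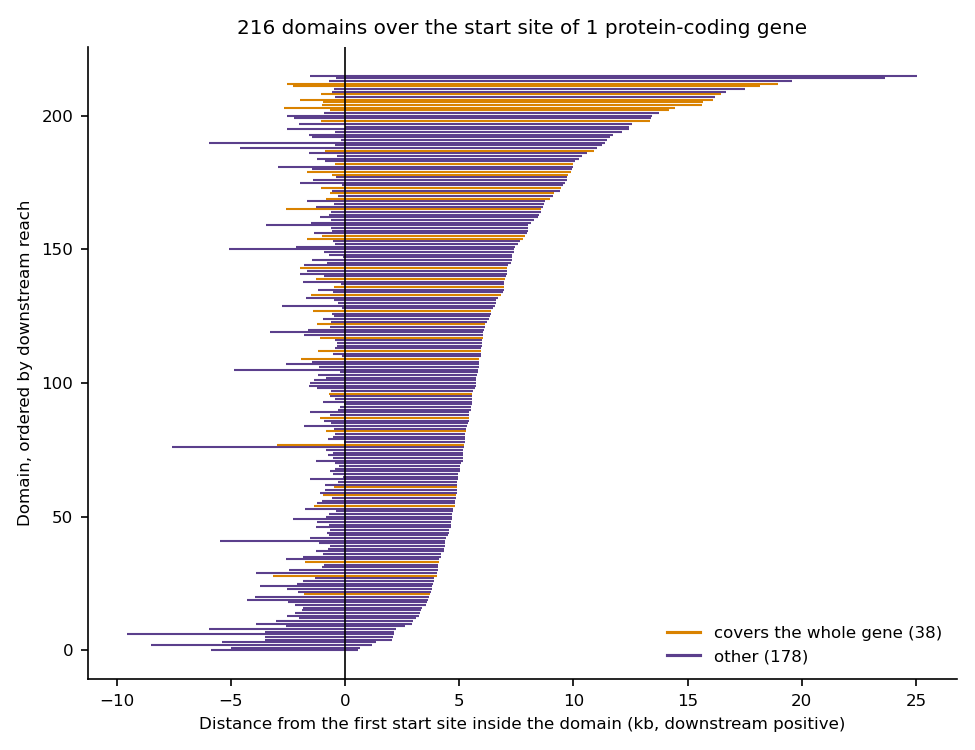
Extent of the 216 domains over the start of a single protein-coding gene, as distance in kb from the first start site inside the domain (downstream positive); each line is a domain, ordered by downstream reach, and orange lines cover the whole gene (38). The downstream side is the longer in 201 domains.

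Start site domains had a median of 51.8% G and C bases and a ratio of observed to expected CpG of 0.358, against 58.4% and 0.690 in shorter start site peaks, which reach less far from the promoter. Gene body domains had 48.5% and 0.218, close to the 50.2% and 0.206 of shorter gene body peaks. Bases marked as repeats made up a median of 15.5% of a domain and 10.0% of a shorter peak.

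Of 11333 protein-coding genes with an autosomal peak, 509 (4.49%) had a domain. There was 1 domain in 415 of them, 2 in 76 and 3 or more in 18. Itpkb, a kinase of inositol phosphates in antigen receptor signalling, held 6 domains over 57.5 kb. Fam107b, Mbnl1, Prkch and Nfkb1 held 4 each, and Dusp10, Ikzf2, Smad7, Ets1, Kdm2b, Cd82 and Myh9 were among those with 3. Reads carry no strand, so the 3 domains of Sla, an adaptor that dampens antigen receptor signals, could not be separated from Tg, within which Sla lies. A domain touched 2 or more protein-coding genes in 99 cases and at most 4, and 77 genes lay wholly inside a domain.

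The gene lists chosen for this tissue differed in how often they carried a domain. Of the genes with a peak, a domain was found in 11 of 14 NF-κB pathway genes (78.6%), 16 of 21 immediate early genes (76.2%), 19 of 32 T cell transcription factors (59.4%), 7 of 14 genes of IL-2 and STAT5 signalling, 13 of 27 T cell receptor signalling genes (48.1%) and 13 of 33 Treg genes (39.4%), beside the 4.49% of all protein-coding genes. The shares were 38.5% for 13 heat shock genes, 36.4% for 22 genes of the cytoskeleton, translation and glycolysis, 35.7% for 14 MHC class I genes, 30.8% for 13 abundant noncoding RNAs and 26.5% for 34 splicing factors. Only 2 of 20 homing receptor genes (10.0%) and 3 of 78 ribosomal protein genes (3.85%) had one, and none of the 56 replication-dependent histone genes with a peak did. In all, 115 of 402 listed genes with a peak had a domain, and in 82 it covered the start. The lists were written with earlier results of these data known, so these shares are a description. Of Treg markers, 8 of 8 had a peak, with a summed normalized count of 30786 to 36809 per library; Ctla4 and Ikzf2 held domains. None of 6 CD8 and NK cell markers had a peak, including Cd8a, Cd8b1 and Ncr1. B cell markers had peaks at 3 of 8 genes (summed count 1245 to 1418), of which Cd79a shares a domain with the start of Arhgef1, while Ms4a1, Pax5 and Ebf1 had none. Myeloid markers had peaks at 4 of 8 (1529 to 1877) and erythroid markers at 3 of 6 (475 to 594), with no domain. The ranges of the 2 genotypes overlapped for the Treg, B cell and erythroid lists. For the myeloid list both KO libraries (1601 and 1529) were below both Ctrl libraries (1758 and 1877). Most of that sum came from 1 peak at Cd68 (1263 and 1298 in Ctrl against 1104 and 935 in KO). Spi1 (411 and 446 against 430 and 462) and Cd14 overlapped between genotypes, and Cebpa was higher in KO (14 and 15 against 26 and 46). The part of these differences in the results was not tested.

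The 10 longest domains were led by 1 of 38145 bp at chr5:123998860-124037004 over the start of Vps37b, a subunit of the ESCRT-I sorting complex, with Hip1r beside it. Its normalized counts were 17866 and 17721 in Ctrl against 16191 and 17641 in KO, so the libraries lay close together (log2 fold change -0.07 ± 0.16 SE). Cotl1, which binds actin filaments, had a domain of 26612 bp (6564 and 6359 in Ctrl against 6006 and 5590 in KO). Ets1, a transcription factor of T cells, had 26205 bp in its body (5995 and 5156 in Ctrl against 5826 and 4903 in KO). Both KO values were lower for Cotl1, whereas the genotypes overlapped for Ets1. The domain of Snx18, a sorting nexin, spanned 24023 bp with 6818 and 6006 in Ctrl against 6200 and 5476 in KO. At chr14:54208554-54229636 a domain of 21083 bp covered Trac, the constant part of the T cell receptor α chain, and the joining segments Traj1 to Traj9 (8289.9 and 7476 in Ctrl against 8168 and 7613 in KO, log2 fold change 0.00 ± 0.16 SE). Neither differed beyond its spread. Nfkbie, which encodes IκBε, shared 20906 bp with Slc35b2 and Hsp90ab1 (9797 and 7305 in Ctrl against 7746 and 6550.3 in KO). Laptm5, a lysosomal protein that limits T cell receptor levels, had 20283 bp with both KO libraries (5149.8 and 5053) above both Ctrl libraries (4856 and 4711), a log2 fold change of 0.09 ± 0.16 SE. Rap1b, Dusp5 and Tnfaip3 complete the set and are described with the lower domains below.

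Ranked by normalized count per kb, the first domain was an outlier of another kind. At chr17:39843033-39848833 the annotation gives the noncoding genes Gm42418, Gm26917 and AY036118, a site of ribosomal RNA-like sequence, and the mean normalized count there was 5560 per kb. It held 0.355% to 0.458% of the autosomal counts of a library, with 35982 and 27226 in Ctrl against 35981 and 29815 in KO. Its sequence exists in many copies, so its height is not read as that of a single gene, and without it the domains held 15.1% and 14.1% of autosomal counts in the Ctrl libraries and 14.5% and 13.5% in the KO ones. Junb, an AP-1 subunit, followed with 783 per kb, then Tnfaip3 with 719.7 and Dusp1, a MAP kinase phosphatase, with 704. The others were the Shisa5 and Trex1 domain (647), H2-K1 (599.9) and H2-D1 (591), which encode class I heavy chains, Nfkbia (578), a noncoding locus at Gm26887 (573) and Mnt, a repressor that pairs with MAX (559). The median domain had 196 to 229 per kb in the 4 libraries.

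Setd2, the targeted gene, carried no domain. Its 9 shorter peaks summed to normalized counts of 525 and 513 in Ctrl against 458 and 560.3 in KO, and the peak at its start had 229 and 192 in Ctrl against 211 and 237 in KO. Pol II over the gene does not show whether the floxed part was deleted, so it does not check the labels. Total counts ranged from 4489646 (KO 2) to 13351007 (KO 1), with 5624680 for Ctrl 2 and 11331274 for Ctrl 1, and there were at least 233 raw counts in every domain of every library.

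The question for the genotypes was whether loss of Setd2 changed Pol II in these domains. The domains held 15.6% and 14.5% of autosomal peak counts in Ctrl 1 and Ctrl 2 and 14.9% and 13.9% in KO 1 and KO 2. The Ctrl mean was 15.0% ± 0.793 (SD, n = 2), the KO mean 14.4% ± 0.752 (SD, n = 2), and the difference of -0.641 percentage points was smaller than the difference of 1.12 points between the Ctrl libraries (two-sided exact permutation p = 0.667, where 0.333 is the smallest that 2 against 2 can give). Both libraries numbered 2 were lower than both numbered 1, and they were also the shallower ones. KO was below Ctrl at each number, by 0.671 points at number 1 and 0.612 at number 2, but KO 1 was above Ctrl 2. No label ties libraries of the same number to each other as pairs.

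**Figure D3:**
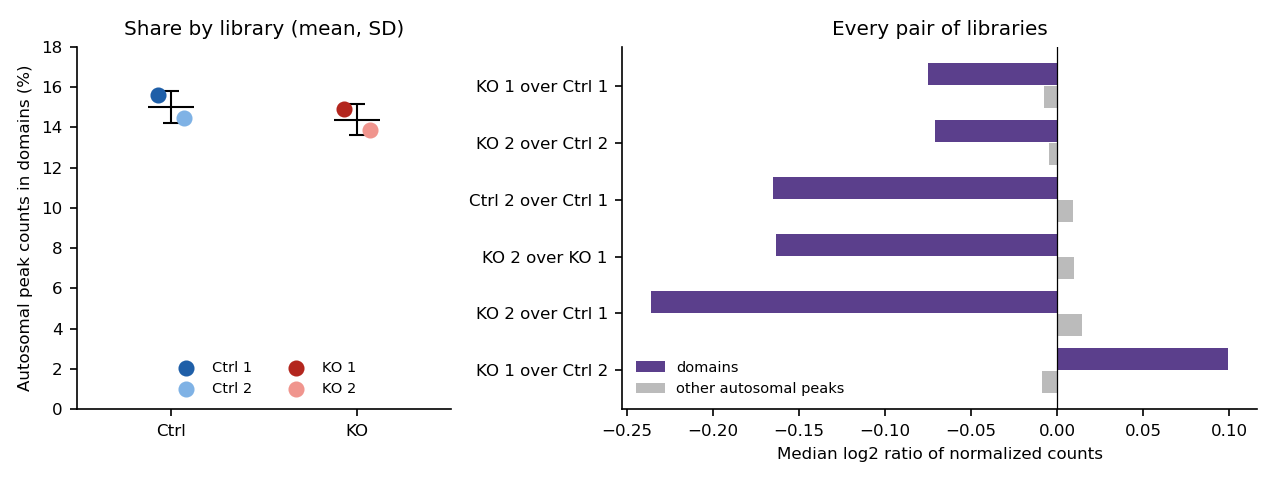
Left, percentage of autosomal peak counts in domains in each library, with mean and SD by genotype (n = 2). Right, median log2 ratio of normalized counts for every pair of libraries, in the 554 domains (purple) and the other autosomal peaks (grey); ratios between replicates (-0.16 in both genotypes) exceed those between genotypes at the same number (-0.08 and -0.07).

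Across the domains the median log2 fold change (KO over Ctrl) came to -0.07, with 172 of 554 above 0 (31.0%), beside -0.01 and 49.0% over all autosomal peaks. Of all domains, 405 lay within 0.2 of 0 and 1 reached 1 in size, that of Hsph1. The median was -0.06 at 5 to 7.5 kb, -0.08 at 7.5 to 10 kb and -0.12 at 10 kb or more, and it was -0.09 in start site domains and -0.06 in gene body domains. At matching library numbers the median log2 ratio was -0.08 for KO 1 over Ctrl 1 and -0.07 for KO 2 over Ctrl 2, while it was -0.16 for Ctrl 2 over Ctrl 1 and likewise for KO 2 over KO 1. In the other autosomal peaks all these ratios lay between -0.01 and 0.01. The sign changed when some single libraries were left out: the median was 0.03 without Ctrl 1 and 0.01 without KO 2, and -0.15 without Ctrl 2 and -0.17 without KO 1. With a library left out, genotype and library number were no longer balanced, so these medians also hold the difference between library numbers. After thinning all libraries to the smallest total it was -0.07, and with scaling by total counts -0.04, where all autosomal peaks had a median of 0.02. In 413 genes with both a domain and other peaks, the median log2 ratio was -0.07 over their domains and -0.01 over their other peaks, and it was the lower in the domains of 271.

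No domain passed an adjusted p of 0.05 by DESeq2 with Benjamini-Hochberg adjustment over all peaks (0 of 554), and no peak of the whole table did (0%). The lowest adjusted p among the domains was 1.00. At an unadjusted p under 0.05 there were 4 domains higher in KO (0.722%, beside 0.862% of all peaks) and 15 lower (2.71%, beside 0.664%). With scaling by total counts these were 14 higher (2.53%, beside 1.1%) and 15 lower (2.71%, beside 0.578%), and without single libraries the lower domains fell to 2 and 1 when Ctrl 1 or KO 2 was left out and numbered 18 and 23 when Ctrl 2 or KO 1 was. In 64 domains (11.6%, beside 16.2% of all peaks) both KO libraries were above both Ctrl libraries, and in 129 (23.3%, beside 16.1%) both were below. By edgeR's quasi-likelihood test 2 domains passed an adjusted p of 0.05 (0.361%, beside 0.0477% of all peaks), Il10ra with 0.0328 and Hsph1 with 4.37e-05, and 16 higher (2.89%, beside 1.93% of all peaks) and 51 lower domains (9.21%, beside 1.7%) had an unadjusted p under 0.05. Unadjusted p-values below are from DESeq2 and carry no call.

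Of the higher domains, 2 belonged to Il10ra, which encodes the ligand-binding chain of the IL-10 receptor. The domain over its start (chr9:45264122-45269806, 5685 bp) had normalized counts of 826 and 643 in Ctrl against 1307 and 1099 in KO, which gave 0.71 ± 0.21 (SE) on the log2 scale, the lowest unadjusted p of all domains. The domain in its body (chr9:45251060-45256239, 5180 bp) had 704 and 705 in Ctrl against 1006 and 1064 in KO, which gave 0.55 ± 0.19 (SE) on that scale. The domains of this paragraph were named for an unadjusted p under 0.05 and no overlap between genotypes, so the lack of overlap is no further result. Leaving out any 1 library left log2 fold changes of 0.54 to 0.91 at the Il10ra start and 0.52 to 0.59 in its body. The domain in Sart1, a component of the spliceosome's tri-snRNP, had 659.9 and 621 in Ctrl against 844 and 967 in KO (0.49 ± 0.20 SE). The domain over the bodies of Rhoc, a small GTPase, and Mov10, an RNA helicase, had 898 and 777 in Ctrl against 1267 and 962 in KO (0.41 ± 0.21 SE). This last value was 0.20 without KO 1, and with single libraries left out Sart1 ran from 0.40 to 0.59.

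Among the 15 lower domains was that of Tnfaip3, which encodes A20, an enzyme that edits ubiquitin and restrains NF-κB. Its normalized counts over 20457 bp were 18509.7 and 15597 in Ctrl against 13315 and 11469 in KO, which gave -0.46 ± 0.18 (SE) on the log2 scale. The value ran from -0.58 to -0.32 when single libraries were left out. Dusp10, a phosphatase of JNK and p38, had 5342 and 4403 in Ctrl against 3694 and 3273 in KO over its start (-0.48 ± 0.18 SE), and its second domain had 2076 and 1629.9 against 1523 and 1284 (-0.40 ± 0.20 SE). Fosb, an AP-1 subunit, had 3588 and 3482 against 2908 and 2119 (-0.49 ± 0.19 SE). Tra2b, a splicing activator, had 2294 and 1757 against 1565 and 1148 (-0.58 ± 0.21 SE). The genotypes did not overlap in the domains of this paragraph. Apart from the second Dusp10 domain, this was a condition for naming them and is no further result. When single libraries were left out, the Dusp10 start ran from -0.62 to -0.33 (nearest 0 without Ctrl 1). Fosb ran from -0.74 (without KO 1) to -0.27 (without KO 2) and Tra2b from -0.82 (without KO 1) to -0.36 (without Ctrl 1).

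The remaining lower domains with the lowest p-values covered genes of several functions. Zfand2a, an arsenite-inducible partner of the proteasome, had 1517 and 1149 in Ctrl against 1005 and 826 in KO (-0.54 ± 0.21 SE). Slc7a1, the main carrier of arginine and lysine, had 1451 and 1323 against 1119.9 and 881 at its start (-0.47 ± 0.20 SE), and Klf13, a zinc finger factor, 1168 and 1372 against 1006 and 862 (-0.44 ± 0.19 SE). The last was a domain outside any gene at chr13:100583915-100589221, 6736 bp from Marveld2, with 1921 and 1802 against 1009 and 1415 (-0.63 ± 0.21 SE). For this domain the KO libraries were farther apart from each other than the Ctrl libraries were. Of the longest domains, Rap1b, a small GTPase of integrin activation, had 5954 and 4844 against 4499.8 and 3481 (-0.44 ± 0.19 SE) and Dusp5, a nuclear phosphatase of ERK, 8603 and 7415 against 6909.5 and 5803 (-0.33 ± 0.18 SE). With single libraries left out, Rap1b ran from -0.64 to -0.26, Dusp5 from -0.47 to -0.21 and Slc7a1 from -0.66 to -0.30, each lowest without KO 1 and nearest 0 without KO 2. Zfand2a ran from -0.72 (without Ctrl 2) to -0.32 (without Ctrl 1) and the intergenic domain from -0.88 (without KO 2) to -0.40 (without KO 1).

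**Figure D4:**
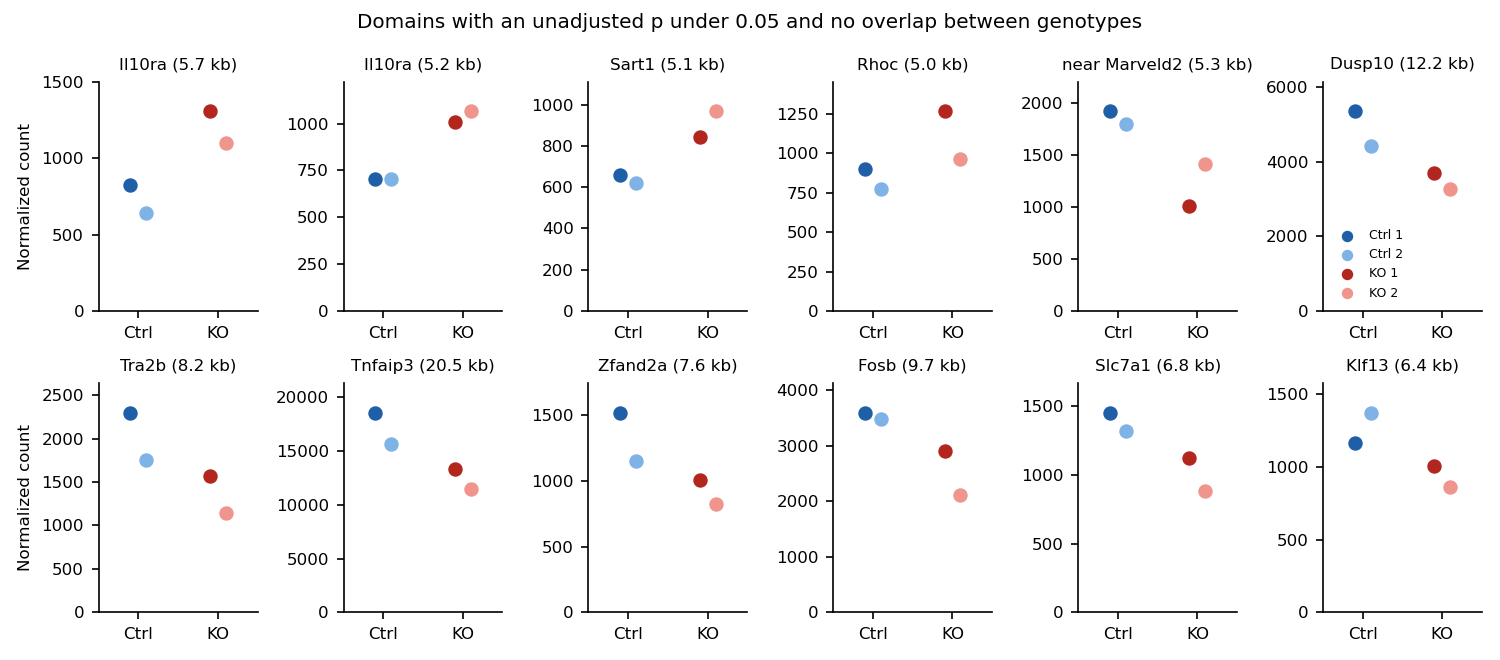
Normalized counts (y axis, from 0) of the 12 domains with an unadjusted DESeq2 p under 0.05, no overlap between genotypes and the lowest p in their direction, in each Ctrl (blue) and KO (red) library; darker points are replicate 1. In the first 4 panels both KO points are above both Ctrl points, and in the other 8 below.

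By function, immediate early genes, which respond to signals without new protein synthesis, leaned lower. Their 16 domains had a median log2 fold change of -0.20, with 1 above 0 (Dusp2, 0.05) and 7 in which both KO libraries were below both Ctrl libraries, a pattern of 16.1% of all peaks and 23.3% of all domains. KO was below Ctrl at both library numbers in 15 of the 16, compared with 311 of all 554 domains. Since the numbers are not known to mark pairs, this count is a description. Fosb alone was lower at an unadjusted p under 0.05, beside 0.664% of all peaks and 2.71% of all domains. Junb had 12222 and 10352 in Ctrl against 10117 and 8938 in KO (-0.24 ± 0.17 SE), Btg1 7561 and 6186 against 6025 and 5191 (-0.29 ± 0.18 SE), and Fos 2577 and 2575 against 2401 and 1948 (-0.24 ± 0.18 SE). In each of the 3 the KO libraries were the lower ones, by less than 2 SE. The list's median was -0.05 without Ctrl 1 or KO 2 and -0.31 and -0.35 without Ctrl 2 and KO 1.

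Heat shock genes, whose products fold proteins, had 5 domains with a median of -0.43 and none above 0. The Hsp90ab1 domain among them (-0.26) is that shared with Nfkbie and Slc35b2, and it is also counted with the NF-κB genes. In 1 of the 5 both KO libraries were below both Ctrl libraries, beside 16.1% of all peaks and 23.3% of all domains. That was Hsph1, with 1449 and 752 in Ctrl against 641 and 451 in KO (-1.01 ± 0.52 SE), short of an unadjusted p of 0.05. Hsp90aa1 had 1656 and 942 in Ctrl against 979.7 and 702 in KO, and Hspa8 had 4211 and 2465 against 2791 and 2172. In these domains the Ctrl libraries stood farther apart than in the other lists described here, with a median log2 ratio of Ctrl 2 over Ctrl 1 of -0.81, and the list's median was -0.02 without Ctrl 1 and -0.76 without Ctrl 2. The 11 domains of splicing factors had a median of -0.12 with 1 above 0, and the 5 of abundant noncoding RNAs (Neat1, Malat1, Gas5 and Snhg15) a median of -0.16 with none above 0; both medians rose to 0.05 and 0.03 without Ctrl 1.

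The 16 domains of Treg genes had a median log2 fold change of 0.03 with 9 above 0. Of them, 2 (both of Il10ra) were higher at an unadjusted p under 0.05, beside 0.862% of all peaks and 0.722% of all domains. Ctla4, an inhibitory receptor, had 5379 and 4286 in Ctrl against 5778 and 5472 in KO over 12565 bp (0.22 ± 0.18 SE), and Lrrc32, which displays latent TGF-β, 6829 and 5741 against 7161 and 5941 over 18093 bp (0.06 ± 0.18 SE). Gata3, a factor the study followed in these cells, had 1 domain of 7985 bp in its body with 1475 and 1071 in Ctrl against 1366 and 954 in KO (-0.13 ± 0.23 SE), which overlapped. Il1rl1 and Il2ra had peaks but no domain. The 19 domains of T cell receptor signalling genes had a median of -0.02 with 7 above 0, the 10 of IL-2 and STAT5 signalling 0.02 with 7 above 0, the 16 of NF-κB genes -0.03 with 5 above 0, and the 24 of T cell transcription factors -0.05 with 6 above 0. Of these 4 lists, an unadjusted p under 0.05 was found in 1 NF-κB domain (Tnfaip3) and 3 domains of transcription factors. All were lower, beside 0.664% of all peaks and 2.71% of all domains. The 3 were both domains of Klf13 and that of Nr4a3, an orphan nuclear receptor induced by antigen receptor signals (4810.2 and 4030.1 in Ctrl against 3749 and 2841 in KO, -0.42 ± 0.19 SE). Both KO libraries were below both Ctrl libraries in 6 of the 24 transcription factor domains and above in 4. Beside this stand 16.1% and 16.2% of all peaks and 23.3% and 11.6% of all domains. KO was below Ctrl at both library numbers, which are not known to mark pairs, in 16 of the 24, compared with 311 of all 554 domains. In Il2rb, a chain of the IL-2 receptor, the 2 domains had 4438 and 4527 against 4565 and 4459, and 3256 and 3316 against 3283 and 3381 (0.01 ± 0.16 SE and 0.02 ± 0.16 SE). The medians of these 5 lists changed sign when single libraries were left out, and that of T cell receptor signalling was also 0.01 with scaling by total counts.

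MHC class I domains (5) had a median of 0.00, which was 0.10 without Ctrl 1 and -0.08 without Ctrl 2. The 8 domains of cytoskeleton, translation and glycolysis genes had a median of 0.10 with 6 above 0; the value was -0.13 in Eif4a1, -0.12 in Eif1 and highest in Coro1a, an actin regulator (1336 and 1313 in Ctrl against 1699 and 1606 in KO, 0.32 ± 0.18 SE). Of 3 ribosomal protein gene domains, those at Rpl7a (1017 and 1077 in Ctrl against 1289 and 1332 in KO) and Rpsa (1221 and 1101 against 1442 and 1366) had both KO libraries above both Ctrl libraries. That at Rpl36 (-0.06 ± 0.20 SE) did not. The same pattern was found in 16.2% of all peaks and 11.6% of all domains. The remaining lists held 2 domains of homing receptor genes (Ccr7, -0.31 ± 0.18 SE, and Selplg, 0.07 ± 0.18 SE) and 3 of H3K36-related genes, all in Kdm2b.

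**Figure D5:**
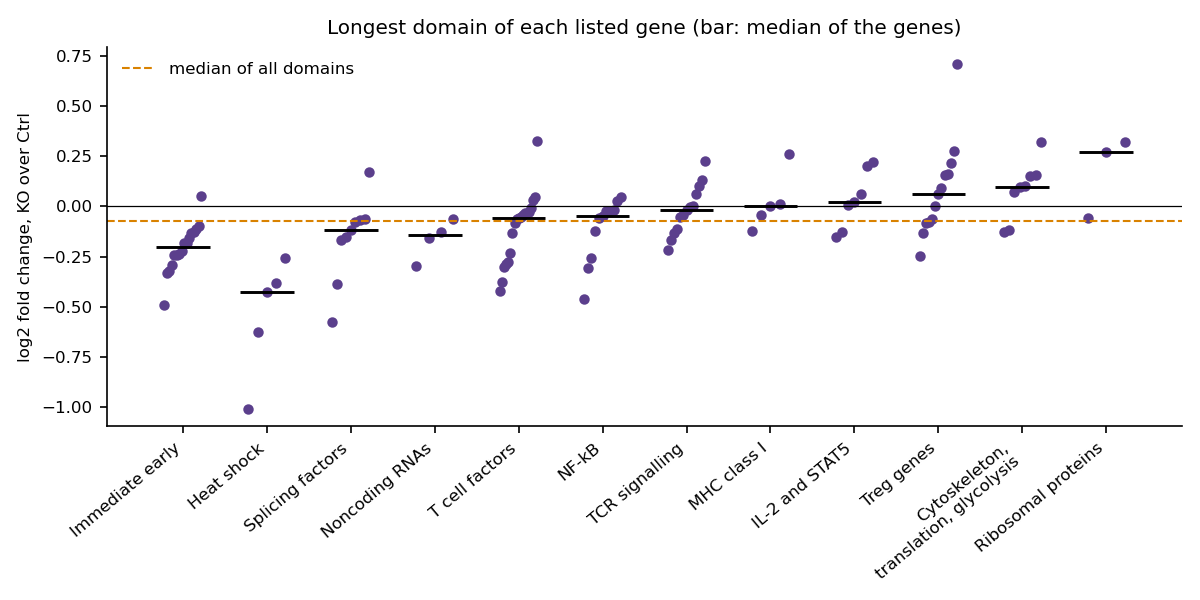
Log2 fold change (KO over Ctrl) of the longest domain of each gene, by gene list; each point is a gene, black bars are medians over genes, and the dashed line is the median of all domains (-0.07). Immediate early and heat shock genes lie below 0 except for Dusp2, and no point stands for a domain past an adjusted DESeq2 p of 0.05.

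The domains were last grouped by the genes that the study lists, from RNA-seq of other libraries, as changed between KO and Ctrl Treg cells. Names alone were used, and since a study picked them for a genotype difference they are no independent evidence of direction. The study does not describe IL-2 treatment of the mice for its RNA-seq, and the large intestine is another tissue than the spleen used here. On genes with lower mRNA in the large intestine there were 44 domains, with a median log2 fold change of -0.21, 3 above 0. Both KO libraries were below both Ctrl libraries in 23 of them and above in 1. Beside this stand 16.1% and 16.2% of all peaks and 23.3% and 11.6% of all domains. Of the 44, 7 were lower at an unadjusted p under 0.05 (beside 0.664% of all peaks and 2.71% of all domains). On genes with higher mRNA there, 47 domains had a median of 0.06 with 27 above 0, 2 without overlap below and 11 above. Of the 47, 1 was higher at an unadjusted p under 0.05 (beside 0.862% of all peaks and 0.722% of all domains). For the spleen, 23 domains of genes with lower mRNA had a median of -0.09 (4 above 0, 7 without overlap below and 2 above). The 129 domains of genes with higher mRNA had a median of -0.02 (58 above 0, 19 without overlap below and 25 above). All these counts without overlap stand beside the same shares, 23.3% below and 11.6% above in all domains. Of the 129, 3 were higher at an unadjusted p under 0.05 (beside 0.862% of all peaks and 0.722% of all domains). With single libraries left out the median over lower genes ran from -0.31 to -0.12 for the large intestine and from -0.23 to -0.01 for the spleen, while both medians over higher genes changed sign.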

How the data were processed

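The authors trimmed the reads, mapped them to mm10 with Bowtie2, kept unique reads without duplicates, called peaks with MACS2 against IgG, merged peaks across libraries and counted reads per merged peak with bedtools. The deposited table holds these raw counts, with no normalization, for 4 libraries. Tool versions are not given in the sources used here. The IgG library is not analysed here, so no background was subtracted. Start positions, deposited counted from 0, are printed counted from 1. Because lengths come from merged peaks of the same libraries, deeper or noisier libraries can affect where a peak ends.

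Genes were taken from GENCODE vM21 (GRCm38). The genotypes were tested with DESeq2 1.42.0 in R 4.3.3 (Wald test, two-sided) on all 56615 peaks, with Benjamini-Hochberg adjustment, and domains were read from that fit; the script was tested on simulated data. edgeR 4.0.16 was the alternative, with others listed in the closing section. Size factors were 1.39, 0.726, 1.68 and 0.587 (Ctrl 1, Ctrl 2, KO 1, KO 2). Relative precision is lower in the shallower libraries numbered 2.

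The length rule and gene lists were chosen with earlier results of these data known. Named domains were the 10 longest, the 10 highest per kb, up to 8 a direction with the lowest unadjusted p under 0.05 and no overlap between genotypes, up to 5 genes a list (longest first), and 3 on each side of the limit; other domains were named after their values were seen. Sequences are from RefSeq. 0 columns of per-sample values lacked a sample.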

Additional observations from a re-analysis of the deposited data

How the results depend on the processing

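The median log2 fold change of the domains kept its sign under edgeR, total-count scaling, thinning, a count filter and length minimums of 4 and 7.5 kb, but not without Ctrl 1 or KO 2 (range -0.17 to 0.03 without single libraries). The difference in share of counts kept its sign under the same length minimums, start site counts as denominator and without single libraries (-1.20 to -0.08 percentage points). For start site domains as a share of start site counts, both KO libraries (23.3% and 22.6%) were below both Ctrl libraries (24.0% and 23.4%). The exact permutation p was then 0.333, the smallest possible here. The domains past an adjusted p of 0.05 numbered 2 with edgeR, and 0 to 1 (Hsph1, without Ctrl 2) without single libraries. At an unadjusted p of 0.05, 16 were higher and 51 lower with edgeR, 14 higher and 15 lower with total counts, and 2 to 7 higher and 1 to 23 lower without single libraries. With a replicate block on the library number, DESeq2 called 12 domains (beside 0.0442% of all peaks), 2 higher (both of Il10ra) and 10 lower (Tnfaip3, Hsph1, Dusp10, Tra2b, Rap1b, Nr4a3, Hsp90aa1, Dusp5, Zfand2a and Ifrd1), and had 25 higher (beside 0.698%) and 93 lower (beside 0.911%) at the unadjusted threshold; deviations of same-numbered libraries correlated (r = 0.23 over autosomal peaks, 0.82 over domains), but with 2 numbers and no label that ties them, pairing is not established. The share of domains over a start site was 68.4% with the starts of all genes, 39.2% with a midpoint within 3000 bp of a start and 65.0% from 7.5 kb. After thinning, log2 fold changes turned to -0.0025 for the Trac domain, -0.0017 for H2-K1 and -0.0071 for H2-D1. Without single libraries they changed sign within -0.19 to 0.070 for Ets1, -0.071 to 0.085 for Trac, -0.12 to 0.0020 for Shisa5 and Trex1, -0.085 to 0.10 for H2-K1, -0.081 to 0.19 for Nfkbia, -0.077 to 0.12 for H2-D1, -0.25 to 0.011 for Dusp1 and -0.13 to 0.28 for the ribosomal RNA-like domain. The cause was not tested. A lone library left in a genotype is assumed to vary like the other group. The libraries numbered 2 had the lower totals. Alternatives over gene lists were chosen after seeing the data.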
